A study of Rattus norvegicus with 30 samples.

Results

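The nitric oxide synthases and the enzymes that make and recycle their cofactor tetrahydrobiopterin were followed in the rat left ventricle. The members were Nos1, Nos2, Nos3, Gch1, Pts, Spr and Qdpr, and every probe set assigned to exactly 1 of these symbols was taken. That gave 21 of the 8799 probe sets on the array, for 7 of the 4736 genes with such a probe set. A further 4 probe sets that name a member together with another gene were not counted. The clearest result was in Gch1, whose brightest probe set fell against control hearts by 5.51-fold in ischemia (ISCH), 2.72-fold in ischemic preconditioning (IPC) and 4.35-fold in anesthetic preconditioning (APC). It also fell in the groups given only the trigger of ischemic (IPC_TRI) or anesthetic (APC_TRI) preconditioning, by 2.12-fold and 1.86-fold. The other tested Gch1 probe set did not pass the test in either trigger group, and the APC_TRI call was lost without some single arrays. Calls of the endothelial synthase Nos3, of Nos2 and of Gch1 differed between probe sets of the same gene. Both Qdpr probe sets rose in APC over APC_TRI, calls that were lost without some single arrays, and Pts and Spr gave no call.

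Nitric oxide synthases convert arginine to citrulline and nitric oxide, which relaxes vessels through guanylate cyclase and cGMP. Nos1 is the neuronal form, Nos3 the endothelial form, and Nos2 the form that inflammatory cytokines induce. All of them need tetrahydrobiopterin, and without it they pass electrons to oxygen and give superoxide. Gch1 catalyses the entry step of its synthesis from GTP, Pts and Spr the steps that follow, and Qdpr regenerates it after it has been oxidised in the aromatic amino acid hydroxylases.

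Total RNA of the left ventricle was measured on 30 Affymetrix arrays, 5 labelled as biological replicates for each of 6 protocols. The groups were ischemia (ISCH), preconditioning by ischemia (IPC), preconditioning by an anesthetic (APC), the trigger of each of these preconditionings on its own (IPC_TRI and APC_TRI) and control (CTL). The labels name neither the rat strain and age nor the anesthetic, doses or times. Nor do they say whether IPC and APC hearts also went through a later ischemia. Differences of IPC or APC from CTL or from a trigger group are thus not credited to preconditioning alone. Since whole ventricle was measured, fewer cells of a type and less RNA per cell cannot be told apart.

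The 8 cardiomyocyte markers on the array lay between the 85.6 and 99.9 percentiles of signal, and none of the 7 endothelial markers was at 0 on any array. The summed signal of 4 atrial markers was 16059.2 to 21187.1 in IPC_TRI and 18840.9 to 29067.5 in APC_TRI, both above the 12172.7 to 15901.3 of CTL, and lay between 8588.6 and 18844.2 on ISCH, IPC and APC arrays. Of these markers Myl7, the atrial myosin light chain, ranged between 153.8 and 3856.3 intensity units over the arrays and fell by 1.59 ± 0.38 in APC relative to APC_TRI (adjusted p = 0.00361). The summed signal of 8 fibroblast markers was 34504.9 to 68053.9 in ISCH, 35468.2 to 73568 in IPC_TRI and 38468 to 42419 in APC_TRI, all above the 21843.1 to 27868.1 of CTL. Relative to CTL, the median log2 change of the 7 tested fibroblast genes was 0.648 in ISCH, but -0.211 in IPC_TRI and -0.218 in APC_TRI. The summed signal of 6 smooth muscle markers was 15134.7 to 22724.2 in IPC_TRI, against 12296.7 to 14698.7 in CTL. Their median log2 change there was -0.168, with 0 called. These sums are of deposited values, so bright genes weigh most in them. The part of these markers in the results below was not tested. The median signal of an array lay between 114.6 and 189.2 intensity units. IPC_TRI arrays were the least alike, with a mean correlation to the other arrays of the group of 0.873 to 0.912, against 0.956 to 0.968 in CTL. The 5th IPC_TRI array and the 1st ISCH array had the lowest such correlation in their groups, 0.873 and 0.920, and results that rest on them are given without them as well. Bacterial control transcripts were brighter in ISCH, with a mean of 12.02 ± 0.61 on the log2 scale, against 10.75 ± 0.69 in CTL (SD, n = 5 each). The 3' minus 5' log2 difference of beta-actin averaged -0.46 ± 0.37 in IPC_TRI and -0.36 ± 0.28 in APC_TRI, against 0.08 ± 0.24 in CTL (SD, n = 5 each), and its part in the results that compare these groups was not tested except as a covariate.

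Near background was defined as a group mean below the 40th percentile of signal, which is 79.5 intensity units on a typical array. Probe sets in the lowest 40% by mean signal stayed out of the tests, so 14 member probe sets of 6 genes were tested among 5244. The other 7 were all 3 of Nos1, 2 of 4 for Nos2 and 2 of 4 for Gch1. X59949cds_s_at of Nos1, AF006619_s_at of Nos2 and rc_AA943102_s_at of Gch1 were near background in all 6 groups. U67309_at of Nos1 was near background in 5 groups, AF008912_at of Nos1 and U03699complete_seq_at of Nos2 in 4, and rc_AI043643_at of Gch1 in 3. Among the tested probe sets, AF085195_at of Nos3, E03424cds_s_at of Gch1 and J03481mRNA_at of Qdpr were near background in 2 groups each, and AJ011115_at of Nos3 and M77850_at of Pts in 1. The other 9 tested probe sets were above that limit in all 6 groups. Signals of different probe sets depend on the probes and are not compared with each other.

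By limma's moderated F test over all 6 groups, 7 of the 14 tested probe sets differed (adjusted p under 0.05), beside 31.6% of all probe sets tested. They were both tested sets of Gch1 (adjusted p = 3.87e-07 and 1.34e-06), 3 of Nos3 (AJ011116_at at 0.000144, AF085195_at at 0.000336 and AJ011115_at at 0.00217), J03481mRNA_at of Qdpr (0.0236) and S71597_s_at of Nos2 (0.043). All changes below are differences of mean log2 values ± SE from that limma fit, with 5 arrays in each group, and adjusted p-values are by Benjamini-Hochberg over all 5244 probe sets.

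**Figure D1:**
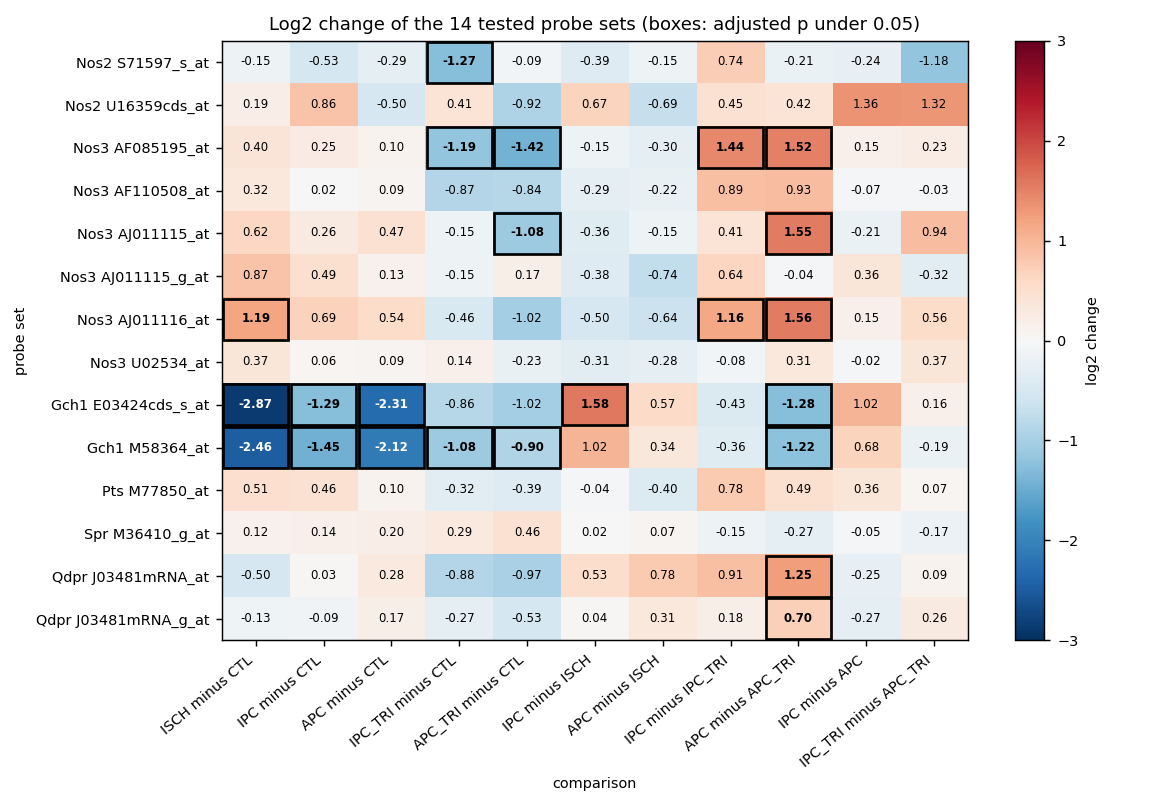
Log2 change of the 14 tested member probe sets (rows) in 11 comparisons (columns), first-named group minus second-named group, with a box where the adjusted p is under 0.05. Gch1 is negative in every comparison with CTL, and the boxes of Nos3 lie in the columns that involve a trigger group and in ISCH minus CTL.

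Gch1, GTP cyclohydrolase, is the step that sets the rate of tetrahydrobiopterin synthesis, and cytokines are known to induce it. Its probe set M58364_at had 263.8, 136.1, 175.1, 131.4 and 180.4 intensity units on the 5 ISCH arrays, 303.8, 499.1, 403.3, 363.6 and 226.4 on the IPC arrays and 192.8, 249.1, 172.9, 167.7 and 279.5 on the APC arrays. On the trigger arrays it had 373.1, 290.3, 335, 785.1 and 783.3 in IPC_TRI and 915.2, 671.4, 483.7, 429.2 and 345.6 in APC_TRI. The CTL arrays gave 1364.8, 1438.6, 765.4, 882 and 865.4. Every ISCH, IPC and APC array was below the lowest CTL array, while the trigger groups overlapped CTL, IPC_TRI with 2 arrays and APC_TRI with 1 array above the lowest CTL value.

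M58364_at fell by 2.46 ± 0.28 in ISCH (adjusted p = 1.78e-07), by 1.45 ± 0.28 in IPC (adjusted p = 0.000782) and by 2.12 ± 0.28 in APC (adjusted p = 2.32e-06) relative to CTL. In the trigger groups it fell by 1.08 ± 0.28 in IPC_TRI (adjusted p = 0.0088) and by 0.90 ± 0.28 in APC_TRI (adjusted p = 0.0391). The 5 comparisons share the CTL arrays. The APC_TRI call was lost without any of APC_TRI arrays 3, 4 and 5 or CTL arrays 1, 2 and 4, with changes of -0.95 to -0.74 and adjusted p of 0.0557 to 0.118, and with the bacterial control signal as a covariate (-0.79, adjusted p = 0.0774). The IPC_TRI call was lost where only these 2 groups were in the fit (adjusted p = 0.0611).

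The other tested Gch1 probe set, E03424cds_s_at, is dimmer. It had 32.3, 16, 26.4, 36.7 and 17.6 intensity units in ISCH, 93.9, 138.4, 117.6, 103.3 and 52.8 in IPC and 26.5, 59.4, 27.4, 19.8 and 96.6 in APC. It had 186.3, 86.5, 96.3, 167.2 and 402.9 in IPC_TRI and 195.5, 144.2, 105.3, 129.6 and 103.9 in APC_TRI, against 286.5, 422.6, 300.9, 318.7 and 148 in CTL. ISCH and APC were near background, and no array of ISCH, IPC or APC reached the lowest CTL array. It fell in all 3, with changes of -2.87 ± 0.35 in ISCH (adjusted p = 5.87e-07), -1.29 ± 0.35 in IPC (adjusted p = 0.0274) and -2.31 ± 0.35 in APC (adjusted p = 2.16e-05). The IPC call was lost without any of CTL arrays 1 to 4 or IPC arrays 1 and 5, with changes of -1.29 to -1.09 and adjusted p of 0.0589 to 0.112. Its changes of -0.86 ± 0.35 in IPC_TRI and -1.02 ± 0.35 in APC_TRI did not pass (adjusted p = 0.0857 and 0.062), while both passed with the 5th IPC_TRI and 1st ISCH arrays left out (-1.15 and -1.03, adjusted p = 0.0266 and 0.0326). Over the 30 arrays the 2 tested Gch1 probe sets correlated at r = 0.928, and at 0.724 once each group's mean was taken out.

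**Figure D2:**
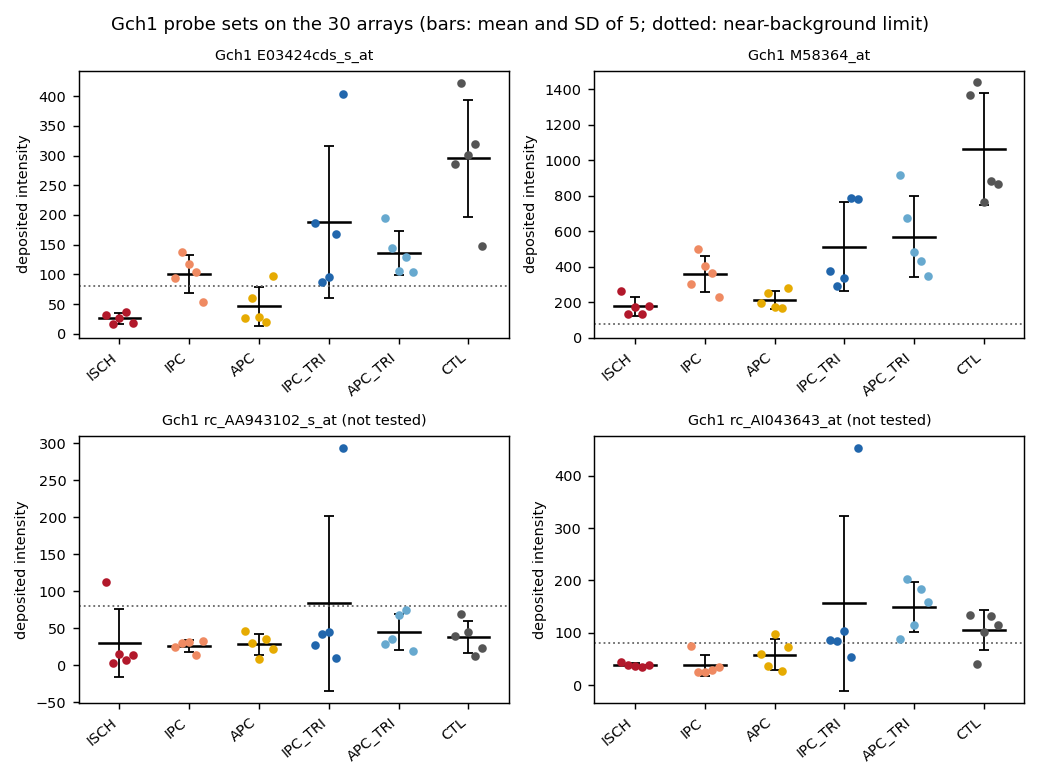
Deposited intensity (y axis, linear) of the 4 Gch1 probe sets on every array by protocol (x axis), with bars for the mean and SD of 5 arrays and a dotted line at the near-background limit of 79.5. In the upper panels ISCH, IPC and APC lie below every CTL array, and in the lower panels the 5th IPC_TRI array stands above the rest.

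The order of the Gch1 group means for M58364_at was ISCH lowest, then APC, IPC, IPC_TRI, APC_TRI and CTL. Of neighbours in this order, APC_TRI and CTL differed as above, and the other 4 pairs did not pass the test. APC minus ISCH was 0.34 ± 0.28 (adjusted p = 0.687), IPC minus APC 0.68 ± 0.28 (adjusted p = 1), IPC minus IPC_TRI -0.36 ± 0.28 (adjusted p = 0.372) and IPC_TRI minus APC_TRI -0.19 ± 0.28 (adjusted p = 0.818). E03424cds_s_at had the same order except that IPC_TRI lay above APC_TRI.

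For 1 of its probe sets Gch1 was higher in IPC than in ISCH. E03424cds_s_at was 3.00-fold higher in IPC (1.58 ± 0.35, adjusted p = 0.0472), with every IPC array above every ISCH array, and M58364_at differed 2.02-fold without passing the test (1.02 ± 0.28, adjusted p = 0.126). In this comparison 1 of 14 member probe sets was called, a rise, beside 0.172% of all (0.0763% higher, 0.0953% lower), and 1 had groups that did not overlap, beside 2.77% of all. That call was lost when any of IPC arrays 1 to 4 or any ISCH array was left out (changes of 1.48 to 1.68, adjusted p of 0.0781 to 0.21). With array weights M58364_at passed too (1.16, adjusted p = 0.00499). The call of E03424cds_s_at was also lost with the bacterial control signal as a covariate (1.33, adjusted p = 0.712), a signal that was higher in ISCH. In APC minus ISCH 0 members were called by limma, beside 0.267% of all, and 1 had an unadjusted p under 0.05.

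Gch1 was lower in APC than in its own trigger group, APC_TRI. M58364_at was 2.34-fold lower in APC than in APC_TRI (-1.22 ± 0.28, adjusted p = 0.00219) and E03424cds_s_at 2.43-fold lower (-1.28 ± 0.35, adjusted p = 0.00965), with no overlap for either. The call of E03424cds_s_at was lost with the beta-actin difference as a covariate (-0.76, adjusted p = 0.132). Between IPC and IPC_TRI neither passed the test. The 2 differences from the trigger groups were not shown to differ from each other. By limma, IPC minus IPC_TRI exceeded APC minus APC_TRI by 0.86 ± 0.39 in M58364_at (adjusted p = 0.542). In E03424cds_s_at it did so by 0.86 ± 0.49 (adjusted p = 0.65).

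The IPC minus IPC_TRI difference was set against the ISCH minus CTL difference, a comparison chosen after the data were seen that shares no array between its sides. For M58364_at the sides were -0.36 and -2.46, a difference of 2.10 ± 0.39 (adjusted p = 0.000875). For E03424cds_s_at they were -0.43 and -2.87, a difference of 2.44 ± 0.49 (adjusted p = 0.00188). These 2 were the members called, beside 13.6% of all probe sets, and neither was called with the bacterial control signal as a covariate (1.62 and 2.10, adjusted p = 0.0805 for both). For APC minus APC_TRI against the same ISCH minus CTL difference, Gch1 differed by 1.24 ± 0.39 in M58364_at (adjusted p = 0.0463) and 1.59 ± 0.49 in E03424cds_s_at (adjusted p = 0.041), beside 8.22% of all. Leaving out 1 array ended the first of these calls for 13 of 20 arrays (1.08 to 1.29, adjusted p of 0.0551 to 0.0938) and the other for 14 of 20 (1.31 to 1.63, adjusted p of 0.0505 to 0.0955). Both were also lost with the bacterial control signal as a covariate (0.75 and 1.24, adjusted p = 0.465 and 0.336), with no filter (adjusted p = 0.0718 and 0.0643), with values as deposited (0.0555 and 0.0558) and with the replicate block (0.0568 for both).

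Of the Gch1 probe sets left out of the tests, rc_AI043643_at had 44.2, 38.2, 36.6, 34.6 and 39.1 intensity units in ISCH and 73.9, 26, 24.2, 29.3 and 34.6 in IPC. It had 59, 36.1, 97.5, 26.3 and 73.5 in APC, 85.6, 84.9, 103.7, 52.9 and 452.6 in IPC_TRI and 87.8, 202.4, 115.6, 183.3 and 159.5 in APC_TRI, against 134.2, 40.3, 101.9, 132.6 and 114.4 in CTL. All but 1 of the ISCH arrays and of the IPC arrays lay below the lowest CTL array. By a 2-sided exact permutation test of mean log2 values, ISCH minus CTL was -1.15 (p = 0.00794, adjusted over 11 comparisons 0.0583) and IPC minus CTL -1.05 (p = 0.0159, adjusted 0.0583), so neither passed after adjustment. Unlike M58364_at, its mean log2 signal was higher in APC_TRI than in CTL, by 0.42 (exact permutation p = 0.238), and in IPC_TRI it was within 0.0125 of CTL (exact permutation p = 0.984). APC minus APC_TRI was -1.05 (exact permutation p = 0.0159, adjusted 0.0583), and IPC minus IPC_TRI was -1.06 (exact permutation p = 0.0476, adjusted 0.122). In the limma fit with no probe set left out, IPC minus IPC_TRI was called (adjusted p = 0.0491). APC minus APC_TRI was not called there (adjusted p = 0.0671). The last, rc_AA943102_s_at, ranged between 3.6 and 293.5 intensity units and was near background in every group.

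The 5 genes whose signal over the 30 arrays was most like Gch1 M58364_at were Stat2 (r = 0.886), Mx2 (0.884), Gbp2 (0.878), Eif2ak2 (0.87) and Rsad2 (0.867), all known as interferon-induced genes. For E03424cds_s_at they were Stat2, Eif2ak2, Gbp2, Mx2 and Cd40 (r of 0.81 to 0.835). These values describe arrays that share protocols and normalization. With group means taken out, the r of the first list with M58364_at was 0.431 to 0.645. Stat2, a transcription factor of interferon signalling, had 116.8 to 223.5 intensity units in ISCH, 99.9 to 235.8 in IPC, 68.7 to 176.9 in APC, 272.7 to 937.9 in IPC_TRI and 286.7 to 678.2 in APC_TRI, against 737.1 to 1034.5 in CTL. IPC_TRI reached into the CTL range, and ISCH, IPC, APC and APC_TRI did not. Rsad2, an antiviral enzyme gene, had 353.7 to 508.1 in ISCH, 285 to 730.4 in IPC, 310.9 to 596.1 in APC, 1604.3 to 6379.4 in IPC_TRI and 2154 to 4967 in APC_TRI, against 6316.5 to 9454.3 in CTL.

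**Figure D3:**
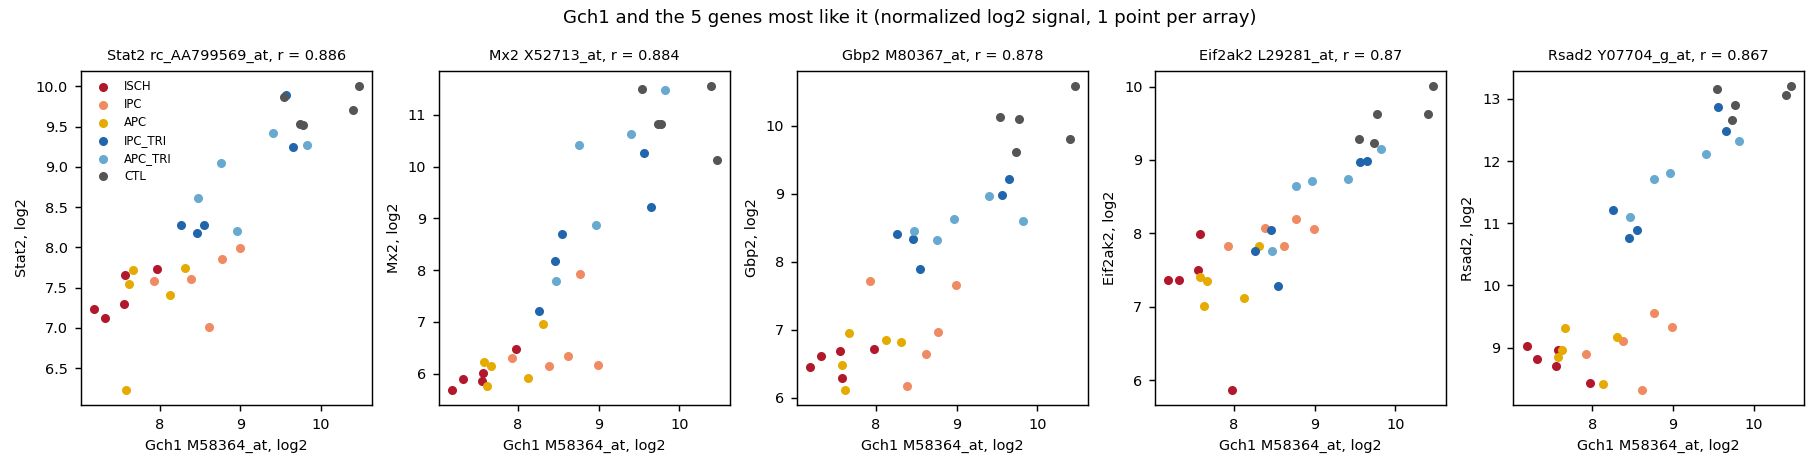
Normalized log2 signal of the 5 genes most like Gch1 (y axes) against Gch1 M58364_at (x axes), 1 point per array, coloured by protocol. In each panel the ISCH, IPC and APC points lie at the lower left and the CTL points at the upper right, and the trigger arrays lie mostly between them.

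The promoters of Gch1 and of the most-like genes with an entry are shown because these genes moved together over the arrays. The bases are the 250 before the annotated start, from RefSeq (GRCr8), written 5′ to 3′ in the direction of the gene, with every match to a searched motif in capitals.
Gch1, GRCr8 chr15:22917413-22917662, minus strand: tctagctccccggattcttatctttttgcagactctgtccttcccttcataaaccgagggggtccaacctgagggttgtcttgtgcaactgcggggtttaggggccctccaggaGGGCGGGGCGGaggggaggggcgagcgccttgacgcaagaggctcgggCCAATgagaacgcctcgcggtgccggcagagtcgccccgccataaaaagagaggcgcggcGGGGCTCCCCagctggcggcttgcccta
Stat2, GRCr8 chr7:1286840-1287089, plus strand: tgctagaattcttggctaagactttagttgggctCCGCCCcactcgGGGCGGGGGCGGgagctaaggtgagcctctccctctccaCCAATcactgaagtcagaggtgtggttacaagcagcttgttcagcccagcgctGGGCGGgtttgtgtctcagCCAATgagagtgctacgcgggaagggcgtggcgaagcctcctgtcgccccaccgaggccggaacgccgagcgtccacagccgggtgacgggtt
Eif2ak2, GRCr8 chr6:21940904-21941153, plus strand: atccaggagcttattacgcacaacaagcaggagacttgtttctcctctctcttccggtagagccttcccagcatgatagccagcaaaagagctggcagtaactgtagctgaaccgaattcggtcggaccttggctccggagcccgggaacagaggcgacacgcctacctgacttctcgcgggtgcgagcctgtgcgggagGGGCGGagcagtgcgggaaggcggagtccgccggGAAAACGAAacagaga
Gbp2, GRCr8 chr2:234005477-234005726, plus strand: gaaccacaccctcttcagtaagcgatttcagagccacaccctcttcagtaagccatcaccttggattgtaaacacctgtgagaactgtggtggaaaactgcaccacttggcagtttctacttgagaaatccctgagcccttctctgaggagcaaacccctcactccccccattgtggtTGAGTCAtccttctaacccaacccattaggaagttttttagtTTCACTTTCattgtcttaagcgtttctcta
Rsad2, GRCr8 chr6:48788121-48788370, minus strand: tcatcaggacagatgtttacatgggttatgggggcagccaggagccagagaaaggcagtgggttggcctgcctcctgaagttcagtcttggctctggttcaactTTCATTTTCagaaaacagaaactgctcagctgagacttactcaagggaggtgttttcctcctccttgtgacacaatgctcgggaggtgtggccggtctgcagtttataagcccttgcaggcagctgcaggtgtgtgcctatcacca

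The letters searched on both strands were GAAANNGAA (interferon-stimulated response element core), TTCNNNGAA (GAS), TGANTCA (AP-1), CACGTG (E-box), GGGCGG (GC box), CCAAT, TGACGTCA (CRE) and a degenerate NF-kB motif. In the 250 bases of Gch1 there were GC boxes at -136 and -131, which overlap by 1 base, a CCAAT box at -88 and a degenerate NF-kB match at -28, all on the plus strand of the gene. Among 33469 rat promoters of this length, 30.5% held the GC box, 34.0% the CCAAT box and 3.54% the NF-kB match. The interferon-stimulated response element core stood in Eif2ak2 at -16, in Gbp2 at -30 and in Rsad2 at -146, and in 8.12% of all promoters; these letters are not in the windows of Gch1 and Stat2. Of the 7 members 6 had an entry. Nos3 held 1 GC box, Nos1 an AP-1 match, a GC box and a CRE match, Spr 2 GC boxes and 2 CCAAT boxes, Qdpr a GAS match, 4 GC boxes and a CCAAT box, and Pts a GAS match and an interferon-stimulated response element core match that overlap. GAS letters were in 7.67%, AP-1 letters in 6.34% and CRE letters in 1.59% of all promoters.

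Pts and Spr, which complete the synthesis after Gch1, had 1 probe set each and no call in any of the 11 comparisons. Pts M77850_at, 6-pyruvoyltetrahydropterin synthase, ran between 145.7 and 182.1 intensity units in ISCH, 134.3 and 169.7 in IPC, 68.7 and 203.9 in APC, 46.2 and 238.1 in IPC_TRI and 31.6 and 170.7 in APC_TRI, against 55.1 and 154.2 in CTL. The spread was wide in the trigger groups, and 4 of 5 ISCH arrays lay above all CTL arrays (ISCH minus CTL 0.51 ± 0.41, adjusted p = 0.53). Spr M36410_g_at, sepiapterin reductase, had 511.7, 414.5, 519.8, 541 and 433.9 in APC_TRI against 364, 352.4, 268.9, 385.4 and 371.4 in CTL. The groups did not overlap, but the change of 0.46 ± 0.18 did not pass (adjusted p = 0.0999), except with the 5th IPC_TRI and 1st ISCH arrays left out (0.47, adjusted p = 0.0407). In the other groups Spr lay between 275.4 and 613.4.

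Qdpr, dihydropteridine reductase, had 2 probe sets from the same deposited sequence. J03481mRNA_at had 167.1, 157.2, 139.7, 181.8 and 136.9 intensity units in APC against 103.7, 44.9, 95.4, 61.6 and 30.7 in APC_TRI. Every APC array was above every APC_TRI array, a group near background, and the rise was 1.25 ± 0.36 (2.38-fold, adjusted p = 0.0149). J03481mRNA_g_at had 657.5, 728.3, 770.9, 968.9 and 912.7 in APC against 305.5, 412.7, 917.8, 493 and 489.5 in APC_TRI. These groups overlapped through 1 APC_TRI array, and the rise was 0.70 ± 0.24 (1.63-fold, adjusted p = 0.0364). The first call was lost without APC_TRI array 5 (1.04, adjusted p = 0.0561), and the other without any of APC arrays 3, 4 and 5 or APC_TRI arrays 1, 2, 4 and 5 (0.55 to 0.71, adjusted p of 0.0568 to 0.119). Both were lost with the beta-actin difference as a covariate (1.13 and 0.56, adjusted p = 0.0662 and 0.164).

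Against CTL, no Qdpr probe set was called. J03481mRNA_at had -0.88 ± 0.36 in IPC_TRI and -0.97 ± 0.36 in APC_TRI (adjusted p = 0.0917 and 0.0844), the second of which passed with the 5th IPC_TRI and 1st ISCH arrays left out (-0.97, adjusted p = 0.0186), and in ISCH its 1st array stood at 20.4 while the others lay between 89.5 and 166. The APC minus APC_TRI difference exceeded the ISCH minus CTL difference by 1.75 ± 0.51 for this probe set (adjusted p = 0.0314). That call was lost without any of APC array 4, APC_TRI arrays 2 and 5, CTL arrays 2 and 4 or ISCH array 1 (1.32 to 1.71, adjusted p of 0.051 to 0.0655), and with the bacterial control signal as a covariate (1.06, adjusted p = 0.422).

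Nos3, the endothelial synthase and the main source of nitric oxide in vessel walls, had 6 tested probe sets that did not behave alike. AJ011116_at had 599, 394.3, 461.4, 594.9 and 454.8 intensity units in ISCH against 130.1, 124.3, 218.9, 306 and 318.6 in CTL. All ISCH arrays were above all CTL arrays, and the rise of 1.19 ± 0.36 was 2.28-fold (adjusted p = 0.0328). The other 5 Nos3 probe sets had changes between 0.32 and 0.87 in this comparison, and none of these passed. The call of AJ011116_at was lost without any of CTL arrays 1, 2 and 3 or ISCH arrays 1, 3, 4 and 5 (1.04 to 1.23, adjusted p of 0.0502 to 0.102), and with the bacterial control signal as a covariate (0.83, adjusted p = 0.436). The summed signal of 7 endothelial markers lay between 2878.3 and 3832.5 on ISCH arrays, against 1839.2 and 2604.2 on CTL arrays, and of these genes Thbd (thrombomodulin) and Egfl7 rose in ISCH by 0.66 ± 0.16 and 1.68 ± 0.36 (adjusted p = 0.00772 and 0.00245). Their part in the Nos3 result was not tested.

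In ISCH minus CTL the 14 tested member probe sets thus gave 1 rise and 2 falls, where 8.77% of all probe sets were called, 3.95% higher and 4.82% lower. IPC minus CTL gave 0 rises and 2 falls, both of Gch1, beside 3.89% of all (1.87% higher, 2.02% lower). APC minus CTL gave 0 rises and 2 falls, both of Gch1, beside 3.66% of all (1.37% higher, 2.29% lower). IPC_TRI minus CTL gave 0 rises and 3 falls, beside 16.6% of all (6.46% higher, 10.1% lower). APC_TRI minus CTL gave 0 rises and 3 falls, beside 8.64% of all (3.72% higher, 4.92% lower). The arrays of the 2 groups did not overlap for 4 member probe sets in ISCH minus CTL (10.3% of all), 3 in IPC minus CTL (7.04%), 2 in APC minus CTL (6.69%), 0 in IPC_TRI minus CTL (9.46%) and 2 in APC_TRI minus CTL (13.4%). Median log2 changes of the 14 were 0.25, 0.10, 0.10, -0.39 and -0.87 in these 5 comparisons in the order named, against -0.01, 0.01, 0.02, -0.05 and -0.01 over all probe sets tested.

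In the trigger groups 2 of the 6 Nos3 probe sets fell relative to CTL. AF085195_at had 37.8, 45.4, 107.7, 177.2 and 31.7 intensity units in IPC_TRI and 99.3, 85.3, 28.7, 23.5 and 25.6 in APC_TRI, against 128.4, 105.3, 172.2, 170 and 125.2 in CTL. APC_TRI did not overlap CTL, IPC_TRI did with 2 arrays, and both trigger groups were near background. It fell by 1.42 ± 0.37 in APC_TRI (2.67-fold, adjusted p = 0.014) and by 1.19 ± 0.37 in IPC_TRI (2.29-fold, adjusted p = 0.0269). AJ011115_at had 22.1, 31.5, 131.1, 210.4 and 119.7 in APC_TRI against 131.8, 158.3, 171.9, 212.2 and 226.5 in CTL, a fall of 1.08 ± 0.33 (adjusted p = 0.0374) with overlapping groups. Its partner AJ011115_g_at, from the same deposited sequence, had a change of 0.17 ± 0.44 there.

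These trigger calls were not all stable. The IPC_TRI call of AF085195_at was lost without any of IPC_TRI arrays 1, 2 and 5 or CTL arrays 3 and 4 (-1.14 to -0.91, adjusted p of 0.0524 to 0.097) and with array weights (-0.60, adjusted p = 0.301), and its APC_TRI call without APC_TRI array 5 (-1.25, adjusted p = 0.0503). The call of AJ011115_at was lost without any of APC_TRI arrays 1 and 2 or CTL arrays 2 to 5 (-1.11 to -0.75, adjusted p of 0.0533 to 0.132). The summed endothelial signal was 2202.6 to 3195.1 in IPC_TRI and 1678.1 to 2191.4 in APC_TRI, and Pecam1, an endothelial adhesion protein, fell by 0.62 ± 0.20 in IPC_TRI (adjusted p = 0.0338). The 6 tested endothelial genes went the other way from Pecam1 in IPC_TRI, with a median log2 change of 0.269, and had -0.299 in APC_TRI. The part of these markers in the Nos3 calls was not tested.

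Against the trigger groups, 3 of the 6 Nos3 probe sets rose in IPC or APC. AF085195_at had 147, 143.4, 179.7, 167.8 and 177.7 intensity units in IPC and 164.1, 141.2, 130.4, 142.2 and 145.1 in APC, so that all APC arrays were above all APC_TRI arrays. It rose by 1.44 ± 0.37 in IPC over IPC_TRI (2.71-fold, adjusted p = 0.00548) and by 1.52 ± 0.37 in APC over APC_TRI (2.86-fold, adjusted p = 0.00411). AJ011116_at had 221.8, 288.5, 393.8, 367.2 and 475 in IPC against 68.1, 258.2, 221.5, 317.8 and 100 in IPC_TRI, and 248.2, 395.1, 350.8, 304.5 and 235.6 in APC against 71.5, 102.8, 49.2, 128.8 and 159.1 in APC_TRI. The APC arrays were all above the APC_TRI arrays, and the IPC arrays overlapped IPC_TRI. It rose by 1.16 ± 0.36 in IPC over IPC_TRI (adjusted p = 0.0199) and by 1.56 ± 0.36 in APC over APC_TRI (adjusted p = 0.00248). AJ011115_at rose in APC over APC_TRI by 1.55 ± 0.33 (2.93-fold, adjusted p = 0.00127), with 282.8, 349.7, 240.3, 217.4 and 174.9 in APC, of which only the last lay within the APC_TRI range.

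The remaining Nos3 probe sets AF110508_at, AJ011115_g_at and U02534_at were called in none of the 11 comparisons. Across all 6 probe sets, correlations over the 30 arrays lay between 0.0988 and 0.782, and AJ011115_at and AJ011115_g_at correlated at 0.208. The IPC over IPC_TRI call of AJ011116_at was lost without IPC_TRI array 1 or 5 (0.81 to 0.90, adjusted p of 0.0813 to 0.0835), and with array weights neither that call nor that of AF085195_at remained (0.68 and 0.85, adjusted p = 0.209 and 0.0966). Both were lost as well with the beta-actin difference as a covariate (1.00 and 1.66, adjusted p = 0.268 and 0.0579) and with only these 2 groups in the fit (1.14 and 1.43, adjusted p = 0.118 and 0.0668). Summed endothelial marker signal was 2176.5 to 2843.4 in IPC and 2381.8 to 2918.5 in APC, and Thbd and Egfl7 rose in APC over APC_TRI by 0.52 ± 0.16 and 1.92 ± 0.36 (adjusted p = 0.0234 and 0.000322). The genes most like AF085195_at, AJ011115_at and AJ011116_at over the 30 arrays were Pdpk1 (r = 0.875), Fabp4 (0.765) and Gng11 (0.815).

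**Figure D4:**
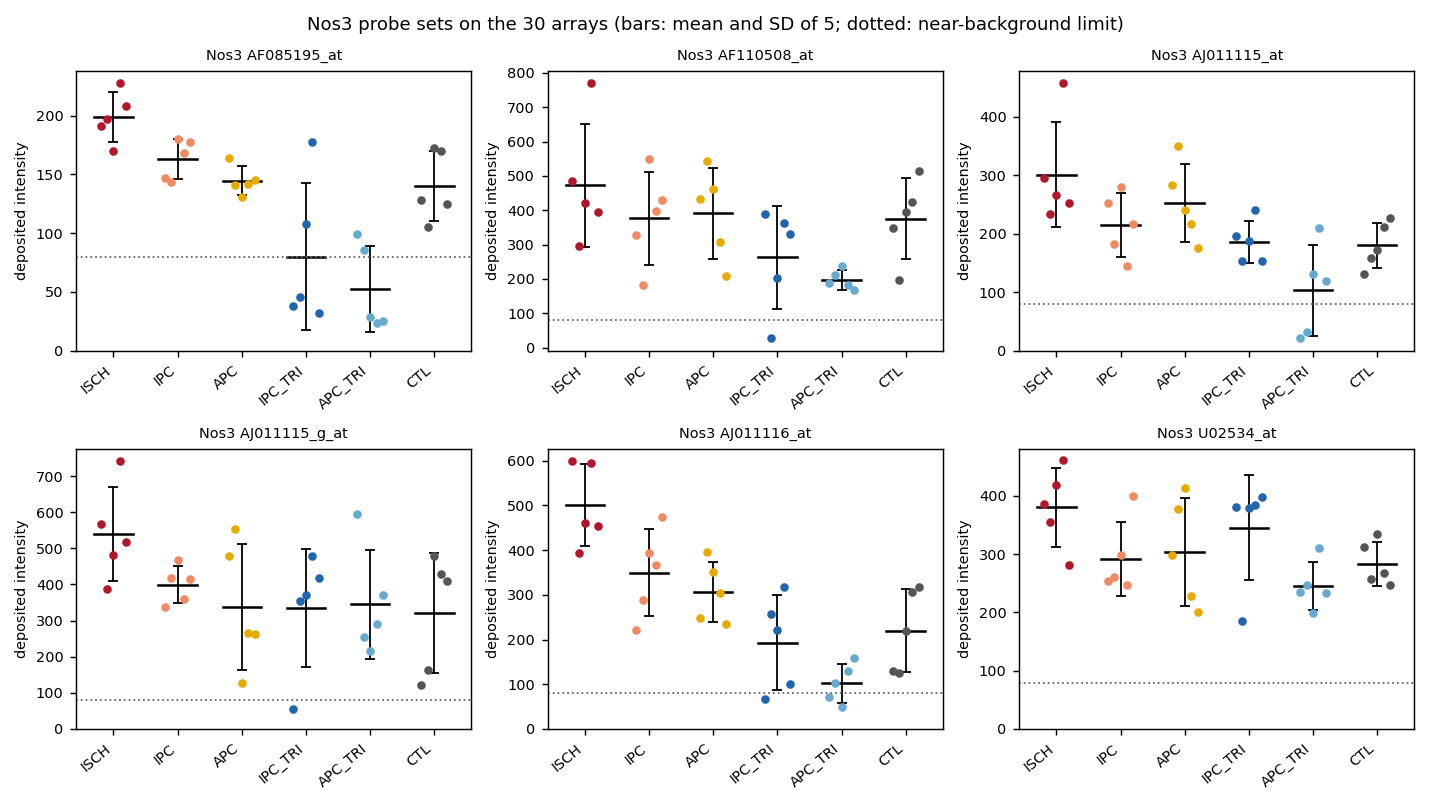
Deposited intensity (y axis, linear) of the 6 Nos3 probe sets on every array by protocol (x axis), with bars for the mean and SD of 5 arrays and a dotted line at the near-background limit of 79.5. AF085195_at and AJ011116_at are lowest in APC_TRI, while U02534_at and AJ011115_g_at show overlapping groups throughout.

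Over these 2 comparisons, IPC minus IPC_TRI gave 2 rises and 0 falls among the 14 member probe sets, beside 23.4% of all called (14% higher, 9.46% lower), and 0 had groups that did not overlap, beside 11.4% of all. APC minus APC_TRI gave 5 rises (3 of Nos3, 2 of Qdpr) and 2 falls (Gch1), beside 17.7% of all (9.82% higher, 7.88% lower), and 5 did not overlap, beside 16.5% of all. No member was called between the preconditionings or between the triggers. By limma, IPC minus APC called 0 members and 0% of all, with 3 members at an unadjusted p under 0.05, and IPC_TRI minus APC_TRI called 0 members, beside 0.439% of all, with 3 at an unadjusted p under 0.05.

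Nos2, the inducible synthase, gave 1 call among 2 tested probe sets in the 11 comparisons. S71597_s_at had 205.7, 33.5, 285.2, 248.4 and 79.3 intensity units in IPC_TRI against 189.8, 319.4, 424, 281.7 and 372.7 in CTL, and only IPC_TRI arrays 2 and 5 were below the CTL range. The fall of 1.27 ± 0.36 (2.42-fold, adjusted p = 0.015) was lost without either of these arrays (-1.02 to -0.87, adjusted p of 0.055 to 0.0583), and with array weights (-0.65, adjusted p = 0.203). U16359cds_at had 392.9, 274.5, 290.2, 406.9 and 281.3 in IPC against 59.9, 266.8, 161.3, 221.2 and 262.1 in CTL. The groups did not overlap, but the change of 0.86 ± 0.53 did not pass (adjusted p = 0.618). In ISCH this probe set split into 3 arrays of 377.1 to 487.2 and 2 of 52.2 and 76.7. The 2 tested Nos2 probe sets correlated at -0.369 over the 30 arrays.

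The other 2 Nos2 probe sets were dim. AF006619_s_at stayed between 13.5 and 56.2 intensity units on all 30 arrays, and U03699complete_seq_at between 31.3 and 191.7. The exact permutation test gave no adjusted p under 0.05 for either. Of 5 neutrophil markers on the array, 0 reached the tests, and their summed signal was 138.6 to 222.9 in ISCH, 110.3 to 202.5 in IPC, 90.6 to 177.9 in APC, 193.2 to 808.5 in IPC_TRI and 105.6 to 227 in APC_TRI, against 112.6 to 213.7 in CTL.

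Nos1, the neuronal form, which is also found in cardiac muscle cells, was at or near background in most groups. AF008912_at lay between 34.5 and 178.6 intensity units on the 30 arrays, U67309_at between 29.8 and 178, and X59949cds_s_at between 13 and 64.4. U67309_at had 43.5, 29.8, 31.9, 43.4 and 43.6 in IPC against 141, 94.1, 46.7, 64.7 and 178 in IPC_TRI, and 49, 39.2, 45.2, 42.9 and 35.7 in APC against 63.5, 62, 70.3, 86.1 and 100.4 in APC_TRI. In both comparisons all IPC or APC arrays were below all arrays of the trigger group. The 2-sided exact permutation test gave p = 0.0159 for IPC minus IPC_TRI (-0.70) and p = 0.00794 for APC minus APC_TRI (-0.51). Adjusted over 11 comparisons these were 0.0874 and 0.0873. The second p is the smallest possible with 5 arrays against 5. The adjustment could therefore not call it unless other comparisons were low too, and the adjusted values do not decide the question. X59949cds_s_at had 24.3 to 32.8 in APC_TRI against 15.4 to 22.3 in CTL, which did not overlap (exact permutation p = 0.0159, adjusted 0.116). Where no probe set was left out of the limma fit, IPC minus IPC_TRI of U67309_at had an adjusted p of 0.0313.

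**Figure D5:**
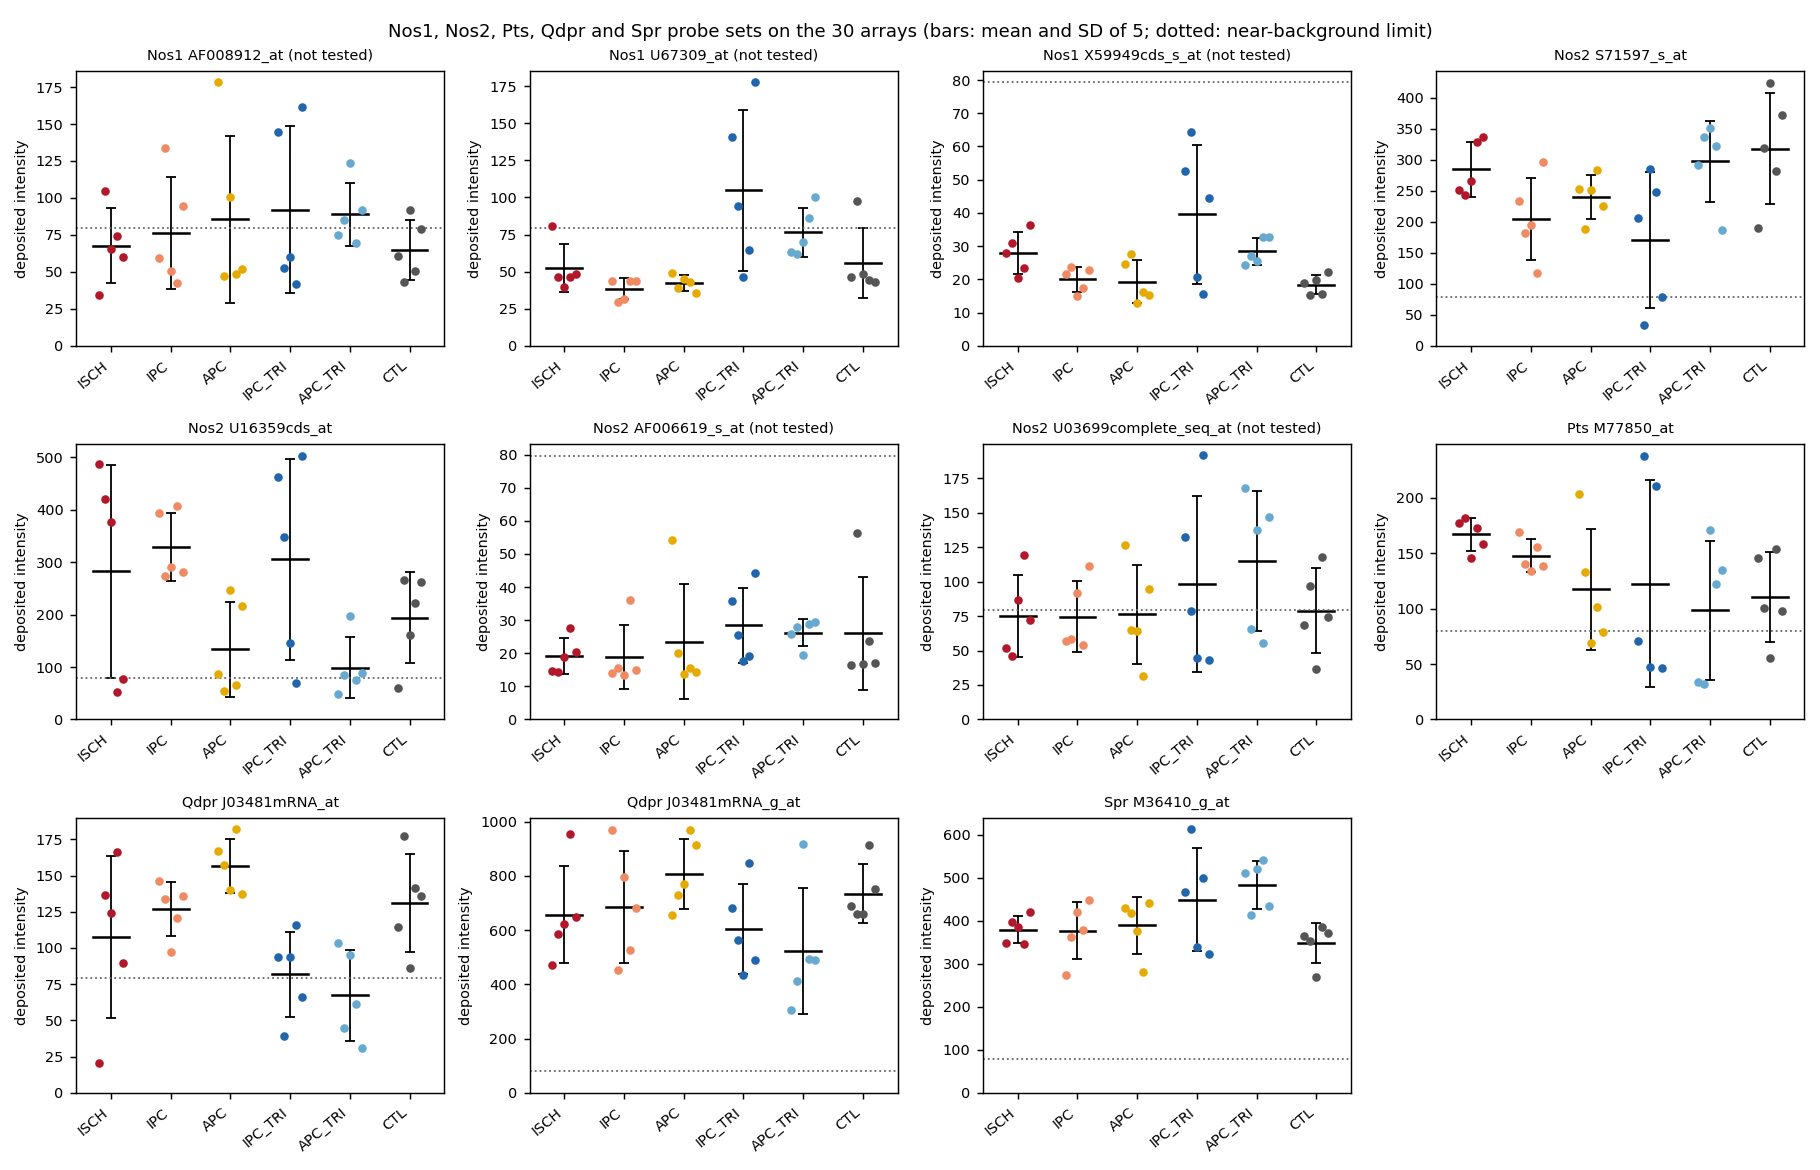
Deposited intensity (y axis, linear) of the 11 probe sets of Nos1, Nos2, Pts, Qdpr and Spr on every array by protocol (x axis), with bars for the mean and SD of 5 arrays and a dotted line at the near-background limit of 79.5. The 3 Nos1 panels lie at or below the line for most arrays, and J03481mRNA_at of Qdpr is lowest in the trigger groups.

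Genes around the members were read as lists. Of 22 cytokines, receptors and factors of the inflammatory signalling known to induce Nos2 and Gch1, 14 were tested. Against CTL 9 of them fell in ISCH, 8 in IPC and 8 in APC, with 0 rises. Over all probe sets 4.82%, 2.02% and 2.29% were called lower in these comparisons. Median changes of the list were -1.15, -0.97 and -1.06, against medians between -0.0103 and 0.0217 over all genes. The summed signal of 7 macrophage and monocyte markers was 1375.9 to 2507.3 in ISCH, 1401.5 to 1929.3 in IPC and 1235.8 to 1921.2 in APC, against 1108.5 to 1750 in CTL. Irf1, a transcription factor that interferons induce, fell by 2.46 ± 0.31 in ISCH (adjusted p = 1.2e-06). Il1a, the cytokine interleukin-1 alpha, fell by 2.18 ± 0.24 (adjusted p = 1.41e-07), with 144.1 to 284.2 intensity units in ISCH against 756.1 to 1582.4 in CTL. Nfkb1 and Nfkbia, a subunit of NF-kB and its inhibitor, fell by 0.85 ± 0.15 and 1.01 ± 0.14 in ISCH (adjusted p = 0.000183 and 6.35e-06). In the trigger groups 2 genes of the list fell in IPC_TRI (Ifngr1 and Stat3) and 0 in APC_TRI, and Nfkbia rose in both, by 0.61 ± 0.14 and 0.69 ± 0.14 (adjusted p = 0.00495 and 0.00246). Over all probe sets 10.1% were called lower in IPC_TRI and 4.92% in APC_TRI relative to CTL. Of the list 8 fell in IPC over IPC_TRI and 8 in APC over APC_TRI, with 0 rises, beside 9.46% and 7.88% of all probe sets called lower.

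In ISCH, IPC and APC relative to CTL the other lists gave no call except that of Pde1b in ISCH. Comparisons with a trigger group gave more, such as 1 rise and 2 falls among 5 synthase partners in IPC minus IPC_TRI. Of all probe sets 23.4% were called in IPC minus IPC_TRI and 17.7% in APC minus APC_TRI. Relative to CTL 8.77% were called in ISCH, 16.6% in IPC_TRI and 8.64% in APC_TRI. Of 5 tested partners of the synthases, Cav3, the muscle caveolin, rose by 0.64 ± 0.16 in IPC_TRI and 0.63 ± 0.16 in APC_TRI over CTL (adjusted p = 0.0074 and 0.0122), and fell by 0.45 ± 0.16 in IPC relative to IPC_TRI (adjusted p = 0.0408). Calm2, a calmodulin gene, rose by 0.40 ± 0.13 in IPC over IPC_TRI (adjusted p = 0.0304). Cav1, the endothelial caveolin that binds and inhibits Nos3, fell by 0.80 ± 0.26 in IPC over IPC_TRI and by 0.83 ± 0.26 in APC over APC_TRI (adjusted p = 0.0224 and 0.0225). Of 7 tested genes of nitric oxide and cGMP signalling, Pde1b, a cyclic nucleotide phosphodiesterase, rose by 1.44 ± 0.37 in ISCH and 1.13 ± 0.37 in IPC_TRI (adjusted p = 0.0125 and 0.0357). Adh5, which reduces S-nitrosoglutathione, rose by 0.51 ± 0.15 in APC over APC_TRI (adjusted p = 0.0214). Of 3 other tetrahydrobiopterin genes, Akr1b1, an aldose reductase, rose by 0.39 ± 0.12 in IPC_TRI and 0.48 ± 0.12 in APC_TRI (adjusted p = 0.0305 and 0.0128). It fell by 0.47 ± 0.12 in IPC relative to IPC_TRI and by 0.44 ± 0.12 in APC relative to APC_TRI (adjusted p = 0.00611 and 0.013). Cbr1, a carbonyl reductase, rose by 0.80 ± 0.26 in APC over APC_TRI (adjusted p = 0.0316). Of 4 tested genes of arginine supply, limma called 0 in each of the 11 comparisons, with 3 at an unadjusted p under 0.05 in APC minus APC_TRI and at most 1 in each other comparison.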

How the data were processed

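The values deposited by the authors are linear signal intensities, 1 for each probe set on each array. Per the deposited values, each array had been scaled to a trimmed mean of 500.8 to 501.0, and the software behind the values is not given in the sources used here. All 30 arrays were mapped to their protocol by the labels. From the deposited intensities, log2(value + 16) was taken, 59 control probe sets were set aside, the rest were quantile normalized, and the lowest 40% by mean were left out. The 5244 remaining probe sets were fitted over all 6 groups with limma (version 3.58.1, R 4.3.3, moderated with a trend), and p-values were adjusted by Benjamini-Hochberg within each comparison, with 0.05 as threshold. Fold changes lie on the scale with the added 16, which understates changes of dim probe sets. The fit was tested on simulated data. Member probe sets left out of the fit were compared by 2-sided exact permutation tests of mean log2 values (Python 3.11.15, scipy 1.17.1), adjusted over 11 comparisons. With 5 arrays against 5 the smallest possible p is 0.00794. After adjustment a lone comparison at that limit has 0.0873, so it passes only where other comparisons of the probe set are low too. Promoters and gene names came from RefSeq and from the platform annotation, in which 7006 probe sets had 1 symbol, 308 several and 1426 none. All member probe sets were named, with the 5 genes most correlated with a probe set and up to 4 called genes of a list by p. The members and lists were chosen with earlier results of these data known. The replicates are labelled as biological, with no animal named. The number of arrays limits the precision. Alternatives were another added constant, other filters, other scalings, a replicate block, array weights, control signals as covariates, fits of only the groups compared, and arrays left out. Differences between differences were added after the data were seen.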

Additional observations from a re-analysis of the deposited data

Results flagged for a closer look

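Of 126 groups of 5 arrays (21 probe sets in 6 protocols), 11 or 8.73% held an array that stood apart from the other 4, where chance gives about 1 in 20. For Gch1 these were the highest ISCH array of rc_AA943102_s_at at 112.4 intensity units, against 3.6 to 15.9 on the others, and the highest IPC array of rc_AI043643_at at 73.9, against 24.2 to 34.6. For Nos3 they were the highest ISCH array of AJ011115_at at 457.0 and the lowest IPC_TRI arrays of AJ011115_g_at at 55.6, AF110508_at at 27.9 and U02534_at at 184.7. AF110508_at and U02534_at were low on the same array, IPC_TRI 2. For Nos2 they were the lowest APC_TRI array of S71597_s_at at 186.8 and the highest IPC array of AF006619_s_at at 36.0. For Nos1 they were the highest CTL arrays of U67309_at at 97.9 and of X59949cds_s_at at 22.3, and for Spr the lowest CTL array at 268.9.

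The difference between protocol and trigger was unlike the difference between ISCH and CTL for 2 genes, by limma's test of the difference itself. For Gch1 every side was a fall, given here for M58364_at and then E03424cds_s_at. ISCH minus CTL was -2.46 and -2.87, IPC minus IPC_TRI -0.36 and -0.43, and APC minus APC_TRI -1.22 and -1.28. The falls relative to the triggers were thus smaller, with differences of 2.102 and 2.445 in the IPC arm and 1.237 and 1.589 in the APC arm. For Qdpr J03481mRNA_at, APC minus APC_TRI was 1.25 and ISCH minus CTL -0.50, a difference of 1.75. With the bacterial control signal as a covariate none of these 5 passed (adjusted p of 0.0805 to 0.465), and both Gch1 differences in the APC arm were also lost with no filter, with values as deposited and with the replicate block. These comparisons share the ISCH and CTL arrays.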

How the results depend on the processing

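Of 5814 recomputed member values, 5522 stayed on the same side of the threshold, 238 lost a call, 54 gained one and 0 changed sign with a call. Gch1 was lower in ISCH and APC than in CTL for both tested probe sets in all settings that tested them. Counts of called member probe sets differed from those reported by over 1.5 times as follows. Reported counts not given above were 6 for ISCH minus IPC_TRI, 7 for ISCH minus APC_TRI, 5 for IPC minus APC_TRI and 6 for APC minus IPC_TRI. Of all probe sets 18%, 16%, 19.8% and 21.2% were called there, in the order named. With pseudocount 1, IPC minus CTL had 1, and with pseudocount 64, IPC minus ISCH had 0. With no filter, APC_TRI minus CTL had 1, IPC minus ISCH 0 and IPC minus IPC_TRI 4, beside 4.7%, 0.0229% and 15.3% of all. With 60% of probe sets left out, fewer members are tested, and IPC minus CTL, APC minus CTL, APC_TRI minus CTL, IPC minus IPC_TRI and IPC minus APC_TRI had 1 each, IPC minus ISCH 0, APC minus APC_TRI, APC minus IPC_TRI and the F test 3 each and ISCH minus APC_TRI 4. With values as deposited, APC minus IPC_TRI had 3. With array weights, IPC_TRI minus CTL had 1, APC_TRI minus CTL 7, IPC minus ISCH 2, IPC minus IPC_TRI 0, ISCH minus IPC_TRI 3 and APC minus IPC_TRI 1. Over all probe sets array weights called 20.3% in APC_TRI minus CTL, 7.51% in IPC_TRI minus CTL, 5.09% in IPC minus ISCH and 15.1% in IPC minus IPC_TRI. They called 12.8% in ISCH minus IPC_TRI and 11.3% in APC minus IPC_TRI. With the bacterial control signal as covariate, IPC minus ISCH had 0. With the beta-actin difference as covariate, IPC minus CTL had 1, IPC minus IPC_TRI 0, ISCH minus IPC_TRI, IPC minus APC_TRI and APC minus IPC_TRI 2 each and the F test 4. Of all probe sets 3.07%, 4.86%, 4.82%, 6.62% and 10.1% were called in these 5 comparisons, in the order named. With only the groups compared in the fit, IPC_TRI minus CTL, IPC minus ISCH and IPC minus IPC_TRI had 0, APC_TRI minus CTL 6, ISCH minus IPC_TRI 3 and APC minus IPC_TRI 1. The shares of all probe sets were 4.46%, 0%, 10%, 15.8%, 6.06% and 8.2%, in the order named. Without the 5th IPC_TRI and 1st ISCH arrays, APC_TRI minus CTL had 7, IPC minus IPC_TRI 1 and APC minus IPC_TRI 3, beside 15.7%, 19.7% and 16.3% of all. Leaving out 1 array gave 1 to 2 for IPC minus CTL, 1 to 4 for IPC_TRI minus CTL, 1 to 3 for APC_TRI minus CTL, 0 to 2 for IPC minus ISCH, 1 to 5 for IPC minus IPC_TRI, 0 to 1 for IPC_TRI minus APC_TRI and 2 to 7 for APC minus IPC_TRI. The APC minus APC_TRI difference set against ISCH minus CTL called 3 members, 1 with no filter, values as deposited, the replicate block or 60% left out, 0 with the bacterial control covariate and 0 to 3 without 1 array. That of IPC minus IPC_TRI called 2, 1 with 60% left out, 0 with that covariate and 4 without IPC_TRI array 4. With the replicate block, IPC minus ISCH had 0, and the samples share only a number: same-numbered arrays correlated at 0.0116 on average (-0.151 to 0.207), other pairs at -0.00198, and 10 of 30 arrays were closest to their own number. Apart from the smaller sets of tested genes and arrays, the cause of these changes was not tested. Median centring took the median log2 change of all probe sets tested from -0.0522 to -0.189 in IPC_TRI minus CTL. In IPC minus IPC_TRI it took that median from 0.0485 to 0.192. Of 1320 recomputed list counts, 1240 stayed within 1.5 times. The 7 dim member probe sets limit what can be said of Nos1 and of the lowest Nos2 and Gch1 signals.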
